A study of Mus musculus with 21 samples.

Results

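Tumours of wild-type female mice were compared with normal colon of wild-type female mice across all genes. The comparison rests on 6 of the 21 libraries of the series, 3 of tumour and 3 of normal colon, chosen by their column names in the deposited count table. All 6 came from C57BL/6 females with no engineered allele. The tumours carry the treatment label AOM/DSS, that is azoxymethane, a carcinogen, combined with dextran sulfate sodium, which injures the lining of the colon. The normal libraries are labelled Non-treatment, although the design text of the series also mentions normal tissue taken next to a tumour, so they are called normal colon here. The other 15 libraries hold tumour and normal colon of wild-type males and of App knock-in males, and normal colon of App knock-in females, all on the same strain. The series asks how App mutations related to Alzheimer's disease alter colon tumours in each sex. The labels give neither the age of the animals nor whether the libraries came from separate animals, so p-values measure the spread between these libraries, which may be technical.

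The colon lining is renewed from stem cells at the base of the crypts, where Wnt signals keep cells dividing, while BMP signals further up favour differentiation into absorptive colonocytes, mucus-producing goblet cells and hormone-producing enteroendocrine cells. Tumours raised with AOM/DSS arise mostly in the distal colon and are known for activated beta-catenin, the effector of Wnt signalling. Beneath the lining lie connective tissue, vessels and immune cells, and outside them a wall of smooth muscle that holds the enteric neurons, glia and pacemaker cells and is covered by mesothelium.

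Each library was total RNA depleted of ribosomal RNA and read on an Illumina NovaSeq. Total counts ran from 6429958 to 26174008 in normal colon and from 7061894 to 8979118 in tumours. Levels are given as counts per 1000000 (CPM) after TMM scaling, in the order of replicates 1, 2 and 3. They are not corrected for transcript length and serve to compare libraries, not genes. The ribosomal RNA precursor Rn45s took 2.84% to 3.18% of the counts in normal colon and 7.96% to 10% in tumours, and its part in the results was not tested. Tumour replicates 2 and 3 carry the library numbers 152 and 153, while the other 4 libraries lie between 99 and 105. Replicates of a group correlated at 0.969 to 0.982 across genes on the log2 CPM scale. The first principal component of the 6 libraries held 79.0% of the variance and separated the groups.

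About as many genes rose as fell in tumours. Of 15936 genes tested with edgeR's quasi-likelihood test, 3989 were higher and 3831 lower at a Benjamini-Hochberg adjusted p below 0.05, in all 49.1% of genes (25% higher and 24% lower). These shares are the background for the counts of every gene group below. With a further demand of at least 1 log2 unit, 1995 genes were higher and 2029 lower (25.3% in all, 12.5% higher and 12.7% lower). A change of 3 log2 units or more was reached by 472 higher and 399 lower genes. The 3 tumour libraries lay above all 3 normal libraries for 29.9% of genes and below them for 28.6%. The median log2 fold change of all genes was 0.01. When libraries were scaled by their totals alone, that median was 0.15 and the share of higher genes among the calls 62.1% in place of 51.0%, whereas all 357 values tested for single genes kept their sign. Without tumour replicates 2 and 3, which leaves 1 tumour library whose spread is taken from the other groups, 5669 genes passed, and they held 67.5% of the original calls.

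Genes were named by the size of their change among those past the test with no overlap between groups and a mean of at least 50 counts in 1 group, 10 in each direction. Serpinb11, a member of the serpin family, had no count in any normal library and 6.25, 11.2 and 11.4 CPM in tumours, at least 28.6-fold higher against a floor of 3 counts a library. H19, an imprinted long non-coding RNA abundant in fetal tissue, lies at chr7:142575529-142578143 on the minus strand (mm10). It stood at 0.0845, 0.139 and 0 CPM in normal colon and at 77.8, 42.9 and 28.7 CPM in tumours, and with 3 normal counts in all its ratio was 596 (95% counting interval 203 to 2894). Both genes were thus near or at 0 in the wild-type female normal libraries and present in all 3 tumours. Other normal colon held more of Serpinb11, 0 to 12.8 CPM in wild-type males and 0.112 to 8.42 CPM in knock-in females. H19 ran from 0.199 to 8.31 CPM in wild-type male and from 0.112 to 0.459 CPM in knock-in female normal colon. The lectin gene Siglec15 went from 0.0423, 0.139 and 0.155 to 46.0, 11.8 and 27.8 CPM, a ratio of 345 (95% counting interval 117 to 1675). The proton channel gene Otop2 went from 0, 0.139 and 0 to 8.29, 3.86 and 18.8 CPM, a ratio of 397 (95% counting interval 70.6 to 15721). Otop1, a second member of the same channel family, rose from 0.211, 0.139 and 0.465 CPM in normal colon to 47.0, 29.4 and 43.2 CPM in tumours (log2 fold change 7.29, SE 1.56, adjusted p 0.00122). These intervals cover counting error only.

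The other genes of this set of 10 were Onecut2, Habp2 and Cyp21a1, and Mmp10 and Mmp7, which are described with the metalloproteinases. Onecut2, a homeodomain transcription factor, stood at 0.845, 0.697 and 0.619 CPM in normal colon and at 169.9, 82.3 and 250.4 CPM in tumours (log2 fold change 7.76, SE 1.6, adjusted p 0.00095). Habp2, a secreted serine protease, rose from 0.169, 0 and 0 to 25.0, 18.7 and 20.1 CPM (log2 fold change 7.57, SE 1.11, adjusted p 3.65e-05). Cyp21a1, a steroid 21-hydroxylase, rose from 0.127, 0.139 and 0 CPM in normal colon to 21.9, 6.67 and 32.2 CPM in tumours (log2 fold change 7.45, SE 1.5, adjusted p 0.000682). In each of these 3 genes tumour replicate 2 was the lowest of the tumours, and still far above normal colon of wild-type females. Wild-type male normal colon held up to 48.6 CPM of Onecut2, 13.2 CPM of Habp2 and 6.29 CPM of Cyp21a1. It also held up to 58.5 CPM of Mmp10 and 97.9 CPM of Mmp7. In knock-in female normal colon the highest levels of these genes were 3.27, 0.714, 0.119, 12.1 and 7.50 CPM in the same order.

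Products of mature colonocytes and of the outer wall were among the genes that fell most. Mptx1, a mucosal pentraxin, stood at 289, 289 and 249 CPM in normal colon and at 0.951, 3.51 and 1.41 CPM in tumours (log2 fold change -7.11, SE 0.87, adjusted p 1.04e-05). The manganese transporter gene Slc30a10 went from 4.57, 23.3 and 38.6 to 0, 0.234 and 0.109 CPM, a ratio of 118 (95% counting interval 40.0 to 572). Il22ra2, the secreted binding protein of interleukin 22, went from 5.20, 4.04 and 2.17 to 0, 0 and 0.109 CPM, a ratio of 112 (95% counting interval 19.8 to 4441). Both were close to 0 in every tumour library. The metalloprotease gene Adam33, at 9.26, 3.48 and 14.4 CPM in normal colon, had no count in tumours and was at least 25.0-fold lower. Ctxn3, a cortexin, was at 5.41, 4.18 and 4.96 CPM in normal colon, again with no count in tumours, and at least 13.4-fold lower. Aqp8, Car4, Slc26a3, Vip and Upk3b complete the set of 10 and are given with their cell types.

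**Figure D1:**
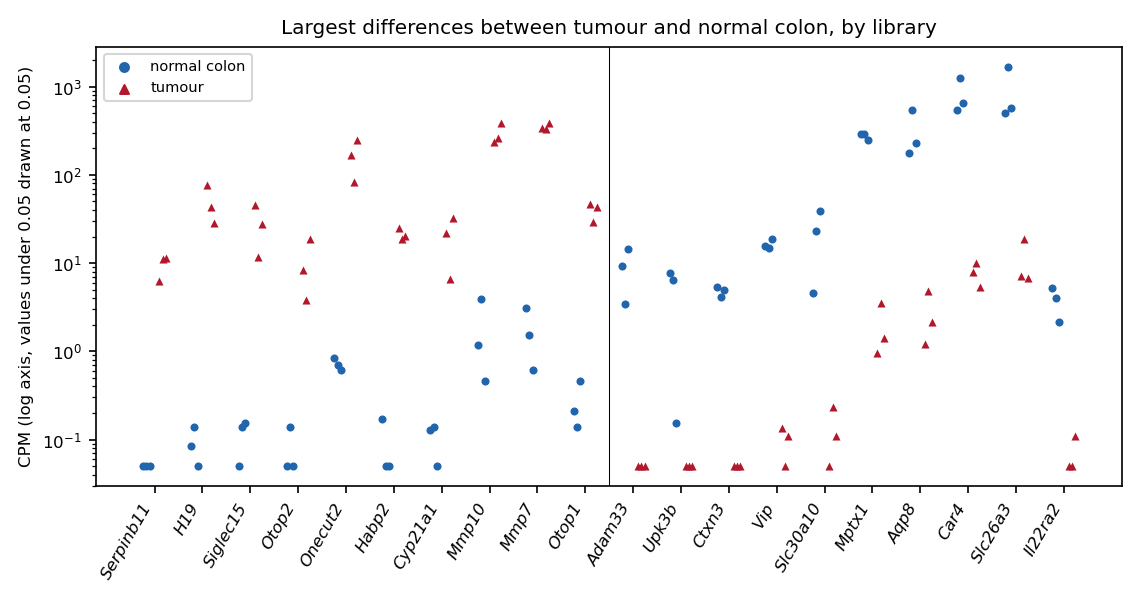
CPM on a log axis for the 10 genes with the largest rise (left of the line) and the 10 with the largest fall (right), one point per library, circles for normal colon and triangles for tumour, with values under 0.05 CPM drawn at 0.05. The 3 tumour libraries lie apart from the 3 normal libraries for each gene, which the choice of genes required.

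Genes were also grouped by role into 34 lists of 485 genes, of which 480 are in the table. Among lists in which most tested members passed, matrix metalloproteinases, neutrophil genes and Wnt targets had the highest medians, and enteroendocrine cells, smooth muscle, B lineage and absorptive colonocytes were among the lowest. The squamous list had a median of 3.86 with 1 of 12 tested genes past the threshold.

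**Figure D2:**
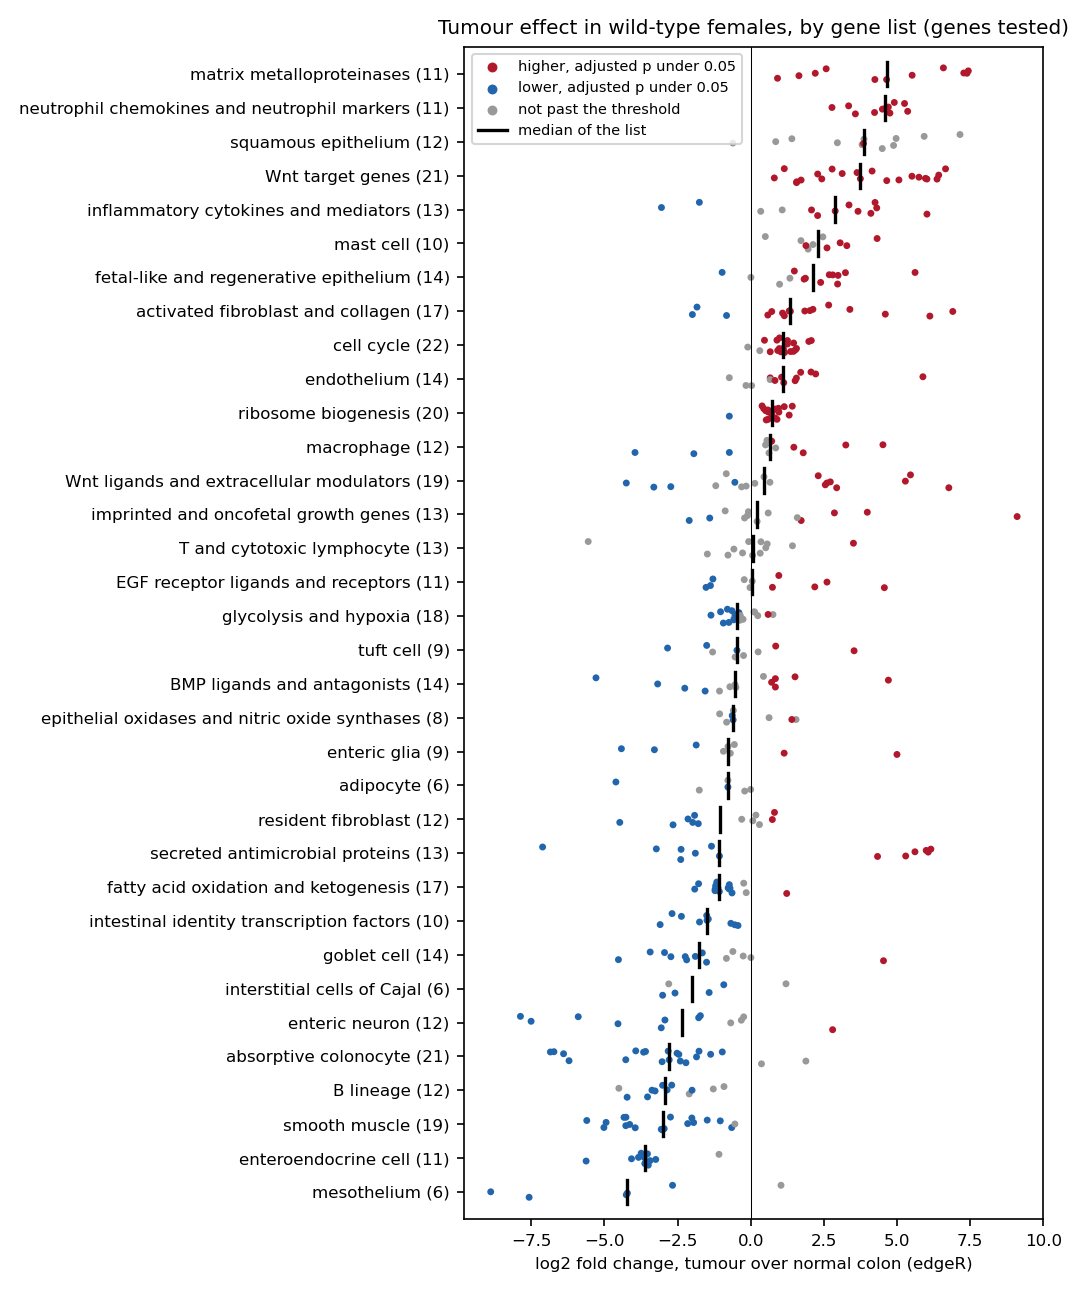
log2 fold change of tumour over normal colon for each tested member of the 34 lists, with the number tested in parentheses; red marks higher and blue lower genes at an adjusted p below 0.05, grey the others, and the bar the list median. All 21 Wnt targets lie to the right of 0 and all 10 intestinal identity factors to the left.

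All 21 listed Wnt target genes rose, against 25% of all genes, with a median log2 fold change of 3.75 beside 0.01 for all genes. Sp5, a transcription factor induced directly by Wnt, rose from 0.592, 0.279 and 0.929 to 63.3, 55.7 and 63.0 CPM (log2 fold change 6.66, SE 1.11, adjusted p 0.00016). Dkk2, a secreted protein that binds Wnt co-receptors, rose from 1.01, 1.11 and 1.70 CPM in normal colon to 87.3, 101 and 121 CPM in tumours (log2 fold change 6.42, SE 0.96, adjusted p 5.92e-05). Notum, an enzyme that removes the lipid from Wnt ligands and so inactivates them, stood at 3.25, 0.836 and 2.01 CPM in normal colon and at 192, 175 and 206 CPM in tumours (log2 fold change 6.37, SE 1.20, adjusted p 0.000463). All 3 were under 4 CPM in every normal library and differed little between the tumours. Other feedback inhibitors rose as well. Nkd1, which acts inside the cell, rose from 12.7, 4.46 and 11.1 to 442, 409 and 478 CPM (log2 fold change 5.51, SE 0.74, adjusted p 2.37e-05). Axin2, a scaffold of the complex that degrades beta-catenin, rose from 31.6, 29.96 and 35.0 CPM in normal colon to 353, 456 and 485 CPM in tumours (log2 fold change 3.75, SE 0.47, adjusted p 9.07e-06). The secreted antagonist Wif1 rose by 5.97 log2 units and the membrane protein Apcdd1 by 6.02. The ligases Rnf43 and Znrf3, which remove Wnt receptors from the surface, had smaller log2 fold changes of 2.43 and 2.78.

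Stem cell and transcription factor genes of the same list followed. Lgr5, the receptor that marks crypt base stem cells, stood at 14.1, 4.46 and 7.12 CPM in normal colon and at 129, 156 and 197 CPM in tumours (log2 fold change 4.15, SE 0.63, adjusted p 6.91e-05). Ascl2, a stem cell transcription factor, rose from 1.86, 3.21 and 2.79 to 21.2, 22.2 and 22.3 CPM (log2 fold change 3.12, SE 0.30, adjusted p 3.77e-07). Normal replicate 1 had the highest Lgr5 level of the normal libraries and was still below all tumours. Prox1, a homeobox factor, rose from 12.9, 4.88 and 7.43 CPM in normal colon to 447, 443 and 539 CPM in tumours (log2 fold change 5.75, SE 0.81, adjusted p 3.69e-05). The nuclear partners of beta-catenin Lef1 and Tcf7 rose by 5.06 and 3.63 log2 units. The smallest changes were those of Ccnd1 at 1.72, Myc at 1.57, Sox9 at 1.56, Ephb3 at 1.15 and Ephb2 at 0.81 log2 units, the last 2 being receptors that position cells along the crypt.

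Because all members rose, their promoters were searched over the 250 bases before each RefSeq start (GRCm38.p6), on both strands, for CTTTGAT and its reverse complement ATCAAAG, a core of the element bound by the partners of beta-catenin. Of 14 targets with a promoter in the table, 2 held it, Sp5 and Tnfrsf19, and 3.28% of 16781 genes held it in the same window. The matches are a description and not a binding site. They are shown in capitals with 30 bases on each side, since Sp5 had the largest rise of the list. The Sp5 stretch lies at chr2:70474789-70474855 on the plus strand and its match begins 104 bases before the start. The Tnfrsf19 stretch, of a receptor gene that rose by 4.65 log2 units, lies at chr14:61038153-61038219 on the minus strand, its match beginning 202 bases before a RefSeq start. That start lies inside the gene, which spans chr14:60963875-61046490, and is not its outermost one.
Sp5: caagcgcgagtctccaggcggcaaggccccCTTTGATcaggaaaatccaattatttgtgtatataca
Tnfrsf19: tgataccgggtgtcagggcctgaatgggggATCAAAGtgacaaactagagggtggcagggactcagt

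The ligands and secreted modulators of the pathway went both ways. Of 19 tested, 8 were higher, 4 lower and 7 not past the threshold (median 0.45), beside 25% higher and 24% lower of all genes. Wnt10a, a ligand of canonical signalling, stood at 0.507, 0 and 0.155 CPM in normal colon and at 37.2, 42.1 and 31.6 CPM in tumours (log2 fold change 6.77, SE 1.05, adjusted p 7.63e-05). Wnt6, a further ligand, rose from 1.18, 1.25 and 2.01 to 53.9, 53.5 and 56.9 CPM (log2 fold change 5.28, SE 0.84, adjusted p 9.86e-05). Wnt5a, a ligand known for non-canonical signalling, rose from 12.3, 12.0 and 11.6 CPM in normal colon to 65.3, 63.5 and 81.8 CPM in tumours (log2 fold change 2.55, SE 0.18, adjusted p 3.63e-08). Each of these ligands was 5 times or more higher in any tumour library than in the highest normal one. Rspo3, an amplifier of Wnt signals made by stromal cells, stood at 6.04, 4.46 and 4.8 CPM in normal colon and at 1.36, 0.117 and 0.870 CPM in tumours (log2 fold change -2.73, SE 0.52, adjusted p 0.000276). Sfrp4, a secreted antagonist, fell from 5.62, 0.976 and 9.76 to 0, 0.351 and 0.435 CPM (log2 fold change -4.25, SE 0.86, adjusted p 0.000534). Wnt3, Wnt5b and Dkk3 rose by 2.94, 2.72 and 2.60 log2 units, while Wnt4 and Wnt9a, at -0.31 and 0.14, did not pass.

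BMP genes also divided, with 5 of 14 higher and 4 lower (median -0.52), beside 25% and 24% of all genes. With a further demand of 1 log2 unit, 2 were higher and 4 lower. The counts are thus not far from the shares over all genes. Bmp7, a ligand, rose from 2.71, 3.34 and 3.56 CPM in normal colon to 87.2, 66.9 and 89.5 CPM in tumours (log2 fold change 4.70, SE 0.41, adjusted p 2.89e-07). Bmp4, a ligand made by stromal cells, stood at 7.74, 10.3 and 9.29 CPM in normal colon and at 17.5, 26.9 and 32.6 CPM in tumours (log2 fold change 1.51, SE 0.25, adjusted p 8.23e-05). Bmp3, a ligand that opposes other BMPs, fell from 52.0, 47.2 and 58.7 to 3.12, 9.12 and 5.0 CPM (log2 fold change -3.18, SE 0.44, adjusted p 1.75e-05). Bmp2, made by surface epithelium, fell from 169, 131 and 164 CPM in normal colon to 30.7, 67.8 and 58.8 CPM in tumours (log2 fold change -1.56, SE 0.28, adjusted p 0.000227). The first 2 ligands were higher and the last 2 lower in every tumour library than in every normal one. Chrdl1, a secreted BMP antagonist, stood at 18.7, 16.9 and 26.9 CPM in normal colon and at 0.815, 0.351 and 0.435 CPM in tumours (log2 fold change -5.29, SE 0.60, adjusted p 2.75e-06). The antagonists Grem1, at -0.54 (adjusted p 0.147), and Nog, at -0.71 (adjusted p 0.340), did not pass. The target gene Id2 rose by 0.84 and Id1, at -0.51 (adjusted p 0.0540), did not pass.

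**Figure D3:**
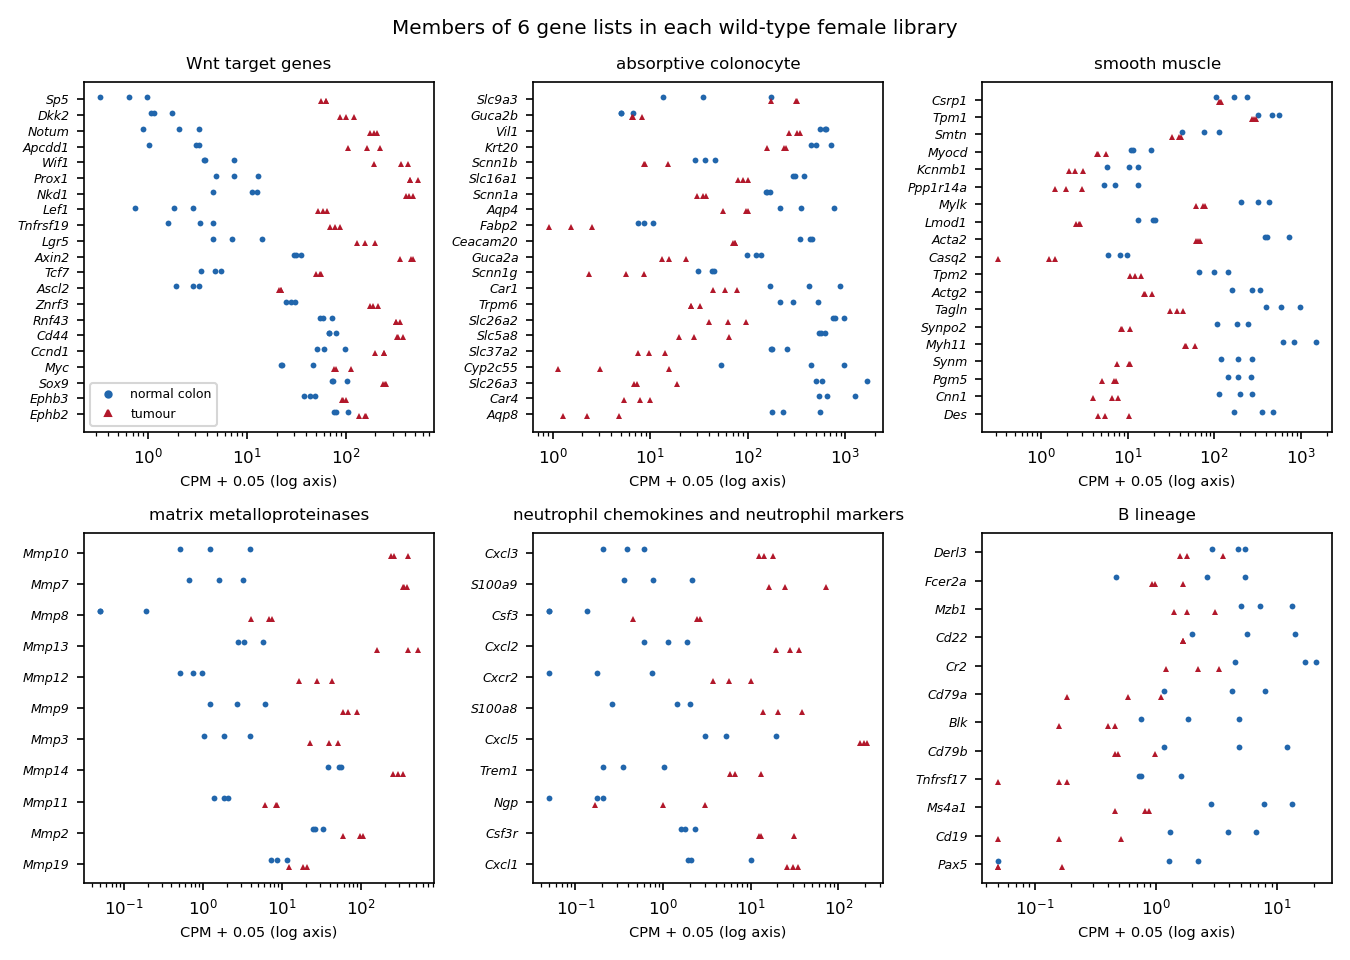
CPM plus 0.05 on a log axis for every tested member of 6 lists, one point per library, blue circles for normal colon and red triangles for tumour. Wnt targets, metalloproteinases and neutrophil genes lie higher in tumours; absorptive colonocyte, smooth muscle and B lineage genes lie lower for most members, with Slc9a3, at 13.4, 172 and 35.0 CPM in normal colon and 317, 173 and 314 CPM in tumours, an exception that did not pass the threshold.

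Genes of the fetal-like state that the gut lining adopts after injury were mostly higher, 10 of 14, with 1 lower and a median of 2.13. Il33, an alarmin, rose from 5.66, 5.16 and 7.28 to 84.8, 30.8 and 54.0 CPM (log2 fold change 3.24, SE 0.44, adjusted p 1.65e-05). Plaur, the receptor of urokinase, rose from 7.40, 7.11 and 6.81 CPM in normal colon to 61.3, 60.7 and 47.6 CPM in tumours (log2 fold change 2.98, SE 0.46, adjusted p 6e-05). The groups of both did not overlap, and among the tumours Il33 was lowest in replicate 2. Clu, a secreted chaperone that marks revival stem cells, stood at 67.2, 36 and 51.3 CPM in normal colon and at 470.4, 281 and 464 CPM in tumours (log2 fold change 2.97, SE 0.41, adjusted p 2.19e-05). Cyr61 and Ctgf, known as targets of the effector Yap, rose by 2.8 and 2.39 log2 units, while Ankrd1, another such target, at 1.34 (adjusted p 0.242), did not pass. Ly6a, the antigen Sca-1 used to isolate such cells, was at 252, 327 and 189 CPM in normal colon and 295, 197 and 279.7 CPM in tumours (log2 fold change 0.01, SE 0.30, adjusted p 0.990). Its groups overlapped. Anxa3 fell by 0.98 log2 units.

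Imprinted and oncofetal growth genes varied, with 4 of 13 higher, H19 among them, and 2 lower (median 0.22). Of all genes, 25% were higher and 24% lower. Plagl1, a zinc finger factor of the imprinted gene network, rose from 2.37, 1.67 and 4.65 to 39.4, 34.0 and 58.6 CPM (log2 fold change 3.98, SE 0.72, adjusted p 0.00029). Cdkn1c, an inhibitor of the cell cycle, rose from 6.21, 3.76 and 5.11 CPM in normal colon to 36.9, 28.8 and 46.5 CPM in tumours (log2 fold change 2.86, SE 0.59, adjusted p 0.000826). Igf2, a fetal growth factor, stood at 1.94, 1.53 and 2.01 CPM in normal colon and at 6.66, 6.90 and 4.78 CPM in tumours (log2 fold change 1.72, SE 0.39, adjusted p 0.00127). Igf2 lies next to H19, at chr7:142650766-142666816 on the minus strand, and its fold change was far smaller than that of H19. Meg3, an imprinted non-coding RNA of another locus, fell from 19.95, 23.3 and 31.3 to 3.94, 8.89 and 4.35 CPM (log2 fold change -2.10, SE 0.33, adjusted p 4.47e-05). Igf2r, Grb10 and Mest did not pass, with log2 fold changes of -0.08, -0.11 and 0.22.

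In the EGF receptor family 5 of 11 genes were higher and 3 lower (median 0.05), with 2 higher when tumour replicates 2 and 3 were left out. Over all genes the shares were 25% higher and 24% lower. Nrg1, a ligand, rose from 4.52, 7.11 and 6.04 CPM in normal colon to 23.8, 42.9 and 38.3 CPM in tumours (log2 fold change 2.61, SE 0.45, adjusted p 0.000146). Egf, a ligand, stood at 8.92, 7.39 and 7.43 CPM in normal colon and at 2.44, 3.63 and 2.17 CPM in tumours (log2 fold change -1.53, SE 0.41, adjusted p 0.00453). Erbb2, a receptor, fell from 363, 207 and 298 to 99.2, 134 and 122 CPM (log2 fold change -1.29, SE 0.19, adjusted p 2.36e-05). Erbb3, the receptor that binds Nrg1, fell from 568, 393 and 412 CPM in normal colon to 144, 203 and 182 CPM in tumours (log2 fold change -1.38, SE 0.17, adjusted p 4.34e-06). Groups did not overlap for any of these. Egfr itself was at 155, 139 and 134 CPM in normal colon and 111, 159 and 150.4 CPM in tumours, with overlap (log2 fold change -0.03, SE 0.16, adjusted p 0.910), and Areg and Hbegf had log2 fold changes of -0.22 and 0.05 that did not pass.

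Genes of cell division rose in 20 of 22 cases, with a median of 1.11. Ccne1, the cyclin of entry into DNA synthesis, stood at 2.24, 6.13 and 4.03 CPM in normal colon and at 20.9, 15.0 and 14.4 CPM in tumours (log2 fold change 2.07, SE 0.41, adjusted p 0.000395). Rrm2, which makes deoxynucleotides, rose from 13.0, 17 and 8.67 to 46.0, 52.1 and 55.3 CPM (log2 fold change 1.98, SE 0.28, adjusted p 1.52e-05). Mcm3, a subunit of the replicative helicase, rose from 19.7, 38.5 and 19.8 CPM in normal colon to 82.6, 69.6 and 76.8 CPM in tumours (log2 fold change 1.56, SE 0.26, adjusted p 7.58e-05). The other subunits, Mcm2 and Mcm4 to Mcm7, rose by 0.98 to 1.46 log2 units, and Plk1 and Tyms, at -0.10 and 0.31, did not pass. Ribosome biogenesis genes rose in 19 of 20 cases by smaller amounts, with a median of 0.73, and in 12 without tumour replicate 1. Gar1, a subunit of the complexes that modify ribosomal RNA, stood at 5.20, 5.85 and 5.88 CPM in normal colon and at 15.3, 14.6 and 15.1 CPM in tumours (log2 fold change 1.42, SE 0.19, adjusted p 9.52e-06). Nhp2, a subunit of the same complexes, rose from 19.5, 26.1 and 23.5 to 68.6, 50.6 and 51.7 CPM (log2 fold change 1.31, SE 0.21, adjusted p 6.14e-05). Fbl, the methyltransferase fibrillarin, rose from 23.9, 30.5 and 22.1 CPM in normal colon to 62.1, 55.1 and 51.9 CPM in tumours (log2 fold change 1.14, SE 0.14, adjusted p 3.74e-06). Groups did not overlap for these 3 genes. The share of Rn45s was higher in these tumours too, as given above, and its part was not tested. In wild-type males it was 4.90% to 8.26% in normal colon and 9.30% to 13.1% in tumours. In knock-in males it did not separate the groups, at 6.59% to 14.1% in normal colon and 6.95% to 8.23% in tumours.

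Absorptive colonocyte genes fell in 19 of 21 cases, against 24% of all genes lower, with a median of -2.79. The largest falls were in water and ion transport. Aqp8, a water channel, stood at 179, 551 and 229 CPM in normal colon and at 1.22, 4.8 and 2.17 CPM in tumours (log2 fold change -6.85, SE 0.65, adjusted p 1e-06). Car4, a surface carbonic anhydrase, fell from 543, 1247 and 657 to 7.88, 9.94 and 5.33 CPM (log2 fold change -6.73, SE 0.63, adjusted p 8.76e-07). Slc26a3, the chloride-bicarbonate exchanger, fell from 497, 1674 and 580.1 CPM in normal colon to 7.2, 18.6 and 6.74 CPM in tumours (log2 fold change -6.40, SE 0.79, adjusted p 1.08e-05). Normal replicate 2 was the highest library for all 3, and each tumour library was more than an order of magnitude below the lowest normal one. Slc5a8, a butyrate transporter, stood at 560.0, 627 and 537 CPM in normal colon and at 28.3, 64.9 and 19.9 CPM in tumours (log2 fold change -3.93, SE 0.51, adjusted p 1.31e-05). Slc16a1, a monocarboxylate transporter, fell from 293, 304 and 381 to 90.2, 101 and 78.9 CPM (log2 fold change -1.85, SE 0.30, adjusted p 7.58e-05). The sodium channel subunits Scnn1a, Scnn1b and Scnn1g fell by 2.21, 1.77 and 2.82 log2 units, and the general epithelial genes Krt20 and Vil1 by 1.37 and 0.97. The sodium-proton exchanger gene Slc9a3 did not pass (log2 fold change 1.88, SE 0.95, adjusted p 0.113), with normal libraries spread from 13.4 to 172 CPM, and neither did Guca2b at 0.37.

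Goblet cell genes fell in 9 of 14 cases (median -1.77). Zg16, a lectin of the mucus, fell from 2181, 2409 and 1576 CPM in normal colon to 51.5, 144 and 72.4 CPM in tumours (log2 fold change -4.52, SE 0.56, adjusted p 9.04e-06). Fcgbp, a mucus protein, stood at 27453, 18528 and 14383 CPM in normal colon and at 1093, 2708 and 1772 CPM in tumours (log2 fold change -3.44, SE 0.35, adjusted p 1.07e-06). Muc2, the gel-forming mucin, fell from 18153, 15076 and 7394 to 1595, 4612 and 2696 CPM (log2 fold change -2.19, SE 0.45, adjusted p 0.000804). For Muc2, normal replicate 3 was the lowest normal library and tumour replicate 2 the highest tumour, with no overlap. The secretory regulators Atoh1 and Spdef fell by 2.24 and 1.51 log2 units, while Clca1 and Retnlb, at 0.00 and -0.26, did not pass. Ang4, an angiogenin made by Paneth and goblet cells, rose from 1.99, 1.95 and 0.619 CPM in normal colon to 36.3, 51.0 and 26.4 CPM in tumours (log2 fold change 4.54, SE 0.79, adjusted p 0.000201). It was the member of this list that rose.

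Enteroendocrine genes fell in 10 of 11 cases, with the lowest median among the epithelial lists, -3.62. Insl5, a hormone of the distal colon, stood at 61.9, 97.4 and 39.6 CPM in normal colon and at 1.90, 1.99 and 0.217 CPM in tumours (log2 fold change -5.63, SE 0.69, adjusted p 7.21e-06). Gcg, the precursor of glucagon-like peptides, fell from 17.5, 24.1 and 16.3 to 0.407, 2.57 and 0.979 CPM (log2 fold change -3.84, SE 0.45, adjusted p 2.79e-06). Chga, a protein of secretory granules, fell from 67.8, 77.1 and 52.8 CPM in normal colon to 5.57, 6.67 and 2.61 CPM in tumours (log2 fold change -3.74, SE 0.53, adjusted p 2.99e-05). Tumour replicate 3 was the lowest library for Insl5 and Chga. Pyy, the peptide YY gene, stood at 86.9, 118 and 75.4 CPM in normal colon and at 8.01, 11.2 and 5.55 CPM in tumours (log2 fold change -3.50, SE 0.48, adjusted p 2.16e-05). Neurod1, a factor of the lineage, fell from 6.89, 8.08 and 4.49 to 0.136, 1.05 and 0.544 CPM (log2 fold change -3.44, SE 0.52, adjusted p 3.19e-05). The summed level of the list was 373, 451 and 281 CPM in normal colon and 26.6, 38.8 and 17.6 CPM in tumours. In bulk tissue, fewer cells of a type and less RNA per cell cannot be told apart, here and in the results that follow.

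All 10 tested transcription factors of intestinal identity fell, with a median of -1.5. Vdr, the vitamin D receptor, fell from 254, 227 and 335 CPM in normal colon to 19.3, 48.7 and 27.3 CPM in tumours (log2 fold change -3.10, SE 0.34, adjusted p 2.55e-06). Klf4, a factor of terminal differentiation, stood at 886, 612 and 858 CPM in normal colon and at 71.4, 183 and 111 CPM in tumours (log2 fold change -2.69, SE 0.32, adjusted p 4.29e-06). Hnf4g, a nuclear receptor of mature enterocytes, fell from 92.0, 71.1 and 74.3 to 12.4, 18.2 and 15.3 CPM (log2 fold change -2.37, SE 0.27, adjusted p 2.39e-06). Tumour replicate 1 was the lowest library for each of the 3. The homeobox genes Cdx1 and Cdx2 fell by 1.75 and 1.5 log2 units and Hnf4a by 1.45. Gata6 had the smallest fall, 0.44, from 96.3, 70.9 and 83.2 to 59.9, 58.5 and 67 CPM. Its groups did not overlap.

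Genes of fatty acid oxidation and ketone body metabolism, the main use of butyrate in colonocytes, fell in 14 of 17 cases (median -1.07). Ppara, a nuclear receptor that regulates them, fell from 19.1, 11.6 and 18 CPM in normal colon to 4.89, 5.38 and 2.72 CPM in tumours (log2 fold change -1.91, SE 0.28, adjusted p 2.18e-05). Ehhadh, a peroxisomal enzyme, stood at 33.4, 32.6 and 35.8 CPM in normal colon and at 8.29, 12.3 and 8.92 CPM in tumours (log2 fold change -1.78, SE 0.20, adjusted p 1.94e-06). Cpt1a, the gate of fatty acid entry into mitochondria, fell from 268, 259.9 and 264 to 103, 125 and 112 CPM (log2 fold change -1.22, SE 0.16, adjusted p 8.12e-06). Groups did not overlap for these 3. Of 18 genes of glycolysis and hypoxia, 9 were lower and 1 higher (median -0.47), with 5 lower when tumour replicates 2 and 3 were left out and 2 higher without normal replicate 2. Hk1, a hexokinase, fell from 247, 241 and 264 CPM in normal colon to 85.8, 111 and 95.9 CPM in tumours (log2 fold change -1.36, SE 0.14, adjusted p 9.58e-07). Pfkp, a phosphofructokinase, stood at 259, 232 and 213 CPM in normal colon and at 115, 118 and 111 CPM in tumours (log2 fold change -1.03, SE 0.14, adjusted p 9.24e-06). The glucose transporter gene Slc2a1 and the pyruvate kinase gene Pkm, at -0.37 and 0.11, did not pass.

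Secreted antimicrobial proteins divided, with 6 of 13 higher and 7 lower, Mptx1 among the latter. Lcn2, which withholds iron from bacteria, rose from 1.23, 5.57 and 1.70 to 242, 92.8 and 206 CPM (log2 fold change 6.16, SE 1.12, adjusted p 0.000344). Lyz1, a lysozyme of Paneth cells, rose from 16.1, 4.04 and 6.19 CPM in normal colon to 478, 646 and 779.8 CPM in tumours (log2 fold change 6.06, SE 0.95, adjusted p 9.85e-05). Saa3, an acute phase protein, stood at 0.845, 1.81 and 0.155 CPM in normal colon and at 40.9, 34.3 and 62.3 CPM in tumours (log2 fold change 5.61, SE 1.20, adjusted p 0.00118). Each was low in normal colon, and Lcn2 varied most between the tumours. Products of the normal surface fell. Pigr, the carrier of secretory IgA, fell from 7131, 5522 and 5278 to 989.9, 1400.0 and 1025 CPM (log2 fold change -2.39, SE 0.18, adjusted p 8.3e-08). Lypd8, which binds flagella, fell from 8847, 9837 and 7351 CPM in normal colon to 1923, 2919 and 2167 CPM in tumours (log2 fold change -1.89, SE 0.17, adjusted p 2.4e-07). Saa1, another acute phase protein, stood at 444, 158 and 155 CPM in normal colon and at 36, 22.3 and 22.9 CPM in tumours (log2 fold change -3.23, SE 0.71, adjusted p 0.00152). Lyz1, Mptx1 and the Saa genes have close paralogs, and how shared reads were assigned is not known, so single members of these families are uncertain. Without tumour replicates 2 and 3, 3 members were higher and 4 lower.

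All 11 listed matrix metalloproteinase genes rose, with the highest median of the 34 lists, 4.64. Other members of the family were not listed, and the lists were chosen with earlier results of these data known. These enzymes cleave collagen and other matrix proteins. Mmp10, a stromelysin, rose from 1.18, 3.90 and 0.465 to 239, 260.4 and 391 CPM (log2 fold change 7.43, SE 1.45, adjusted p 0.000612). Mmp7, made by epithelial cells, rose from 3.13, 1.53 and 0.619 CPM in normal colon to 344, 334 and 385 CPM in tumours (log2 fold change 7.39, SE 1.17, adjusted p 0.000109). Mmp13, a collagenase, stood at 2.75, 5.71 and 3.25 CPM in normal colon and at 160.3, 388 and 523 CPM in tumours (log2 fold change 6.58, SE 1.29, adjusted p 0.00066). Tumour levels of Mmp7 lay in a narrow range, while Mmp13 was lowest in tumour replicate 1. Mmp8, a neutrophil collagenase, was at 0, 0.139 and 0 CPM in normal colon and 7.33, 3.98 and 6.74 CPM in tumours, and with 1 normal count in all its ratio was 223 (95% counting interval 39.4 to 8857). On chromosome 9, 6 of the 11 genes form a cluster between 7272514 and 7699585 (mm10), namely Mmp13, Mmp12, Mmp3, Mmp10, Mmp8 and Mmp7 in that order along the plus strand. Leaving Mmp8 aside, their log2 fold changes were 6.58, 5.51, 4.24, 7.43 and 7.39. Those of the 5 members elsewhere were 4.64 for Mmp9, 2.58 for Mmp14, 2.20 for Mmp11, 1.65 for Mmp2 and 0.91 for Mmp19.

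Collagen and activated fibroblast genes were higher in 14 of 17 cases and lower in 3 (median 1.36). Spp1, osteopontin, rose from 0.296, 0.836 and 0.465 to 77.3, 36.8 and 54.0 CPM (log2 fold change 6.90, SE 1.03, adjusted p 4.9e-05). Il11, a cytokine of activated fibroblasts, rose from 0.803, 0.557 and 0.619 CPM in normal colon to 31.6, 58.5 and 58.2 CPM in tumours (log2 fold change 6.12, SE 0.98, adjusted p 9.08e-05). Inhba, a subunit of activin, stood at 1.27, 1.53 and 3.41 CPM in normal colon and at 38.7, 48.5 and 50.9 CPM in tumours (log2 fold change 4.6, SE 0.56, adjusted p 6.24e-06). All 3 were low in normal colon. Col1a1, a chain of the main fibrillar collagen, rose from 234, 152 and 154 to 423, 1022 and 916 CPM (log2 fold change 2.12, SE 0.30, adjusted p 2.16e-05). Tumour replicate 1 was well below replicates 2 and 3 for Col1a1. Postn, a matrix protein made by fibroblasts and smooth muscle, fell from 311, 315 and 426 CPM in normal colon to 109, 96.9 and 88.3 CPM in tumours (log2 fold change -1.84, SE 0.23, adjusted p 5.02e-06). Fap, a surface protease of activated fibroblasts, stood at 11.6, 9.76 and 7.43 CPM in normal colon and at 2.17, 2.46 and 2.61 CPM in tumours (log2 fold change -1.99, SE 0.39, adjusted p 0.000371). These genes fell together with Col8a1, by 0.83 log2 units, against the direction of the other 14.

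Resident fibroblast genes were lower in 6 of 12 cases and higher in 2 (median -1.05). Clec3b, a plasminogen-binding lectin, fell from 6.93, 9.48 and 22.3 to 0.272, 1.40 and 0 CPM (log2 fold change -4.48, SE 0.77, adjusted p 0.000153). Pi16, a marker of adventitial fibroblasts, fell from 9.17, 5.02 and 13.6 CPM in normal colon to 2.31, 1.17 and 0.979 CPM in tumours (log2 fold change -2.66, SE 0.71, adjusted p 0.00509). Mfap5, a microfibril protein, stood at 5.71, 7.39 and 7.12 CPM in normal colon and at 1.49, 1.05 and 1.96 CPM in tumours (log2 fold change -2.14, SE 0.39, adjusted p 0.000208). Normal replicate 3 was the highest library for Clec3b and Pi16, and no tumour library reached the normal range of any of the 3. Gsn fell by 1.92 log2 units, Pdgfra rose by 0.74 and the broadly expressed Dcn, at 0.18, did not pass.

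Endothelial genes were higher in 10 of 14 cases (median 1.09), while the list median in wild-type males was -0.12. The list summed to 241, 339 and 401 CPM in female tumours. This was not above other normal colon, at 269 to 412 CPM in wild-type males and 305 to 328 CPM in knock-in females. Apln, a peptide of sprouting vessel tips, rose from 0.169, 0.279 and 0.310 to 2.72, 16.8 and 21.5 CPM (log2 fold change 5.88, SE 0.85, adjusted p 2.6e-05). Flt1, a receptor of vascular growth factors, rose from 5.11, 6.55 and 6.50 CPM in normal colon to 16, 29.6 and 37.4 CPM in tumours (log2 fold change 2.22, SE 0.30, adjusted p 1.22e-05). Cdh5, the vascular cadherin, stood at 7.36, 10.3 and 12.7 CPM in normal colon and at 29.2, 45.0 and 49.3 CPM in tumours (log2 fold change 2.06, SE 0.28, adjusted p 1.31e-05). Tumour replicate 1 was the lowest tumour for all 3, and without tumour replicates 2 and 3 the number of higher genes was 6. The lymphatic genes Lyve1 and Flt4, at -0.73 and -0.16, and the receptor genes Tek and Kdr, at 0.03 and 0.66, did not pass.

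All 11 tested neutrophil genes and chemokines rose, with a median of 4.59. Cxcl3, a chemokine that attracts neutrophils, rose from 0.338, 0.557 and 0.155 to 14.1, 12.5 and 17.8 CPM (log2 fold change 5.36, SE 1.01, adjusted p 0.000336). Cxcl2, a chemokine of the same kind, rose from 0.550, 1.81 and 1.08 CPM in normal colon to 35.6, 28.1 and 19.5 CPM in tumours (log2 fold change 4.75, SE 1.28, adjusted p 0.00596). S100a9, a calprotectin subunit carried by neutrophils, stood at 0.719, 2.09 and 0.310 CPM in normal colon and at 72.7, 16.3 and 24.7 CPM in tumours (log2 fold change 5.26, SE 1.29, adjusted p 0.00329). For S100a9, tumour replicate 1 was the highest tumour and normal replicate 2 the highest normal library. Csf3r, the receptor for the neutrophil growth factor, rose from 1.73, 2.23 and 1.55 to 30.8, 13.0 and 12.3 CPM (log2 fold change 3.34, SE 0.51, adjusted p 4.18e-05). Inflammatory mediators were higher in 9 of 13 cases and lower in 2 (median 2.89). Il23a, a cytokine subunit, rose from 0.380, 0.697 and 0.155 CPM in normal colon to 9.78, 6.08 and 8.92 CPM in tumours (log2 fold change 4.30, SE 0.58, adjusted p 9.73e-06). Il1b, a cytokine of myeloid cells, stood at 3.21, 4.18 and 2.48 CPM in normal colon and at 102, 45.4 and 41.3 CPM in tumours (log2 fold change 4.25, SE 0.83, adjusted p 0.000551). Tumour replicate 1 had the highest level of each. Ptgs2, the inducible cyclooxygenase, rose from 9.51, 5.02 and 9.14 to 82.6, 116 and 107 CPM (log2 fold change 3.67, SE 0.56, adjusted p 6.03e-05). Hpgd, the enzyme that inactivates prostaglandins, fell from 124, 98.8 and 122 CPM in normal colon to 6.11, 19.2 and 16 CPM in tumours (log2 fold change -3.05, SE 0.41, adjusted p 1.81e-05). The epithelial cytokine Il18 fell by 1.76 log2 units, and Tnf, at 6.43, 8.78 and 4.49 CPM in normal colon and 15.6, 12.2 and 13.8 CPM in tumours, did not pass (log2 fold change 1.07, SE 0.54, adjusted p 0.109).

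Macrophage genes varied, with 5 of 12 higher and 3 lower (median 0.67), beside 25% and 24% of all genes. The complement genes C1qa, C1qb and C1qc, shared by most tissue macrophages, did not pass, with log2 fold changes of 0.85, 0.62 and 0.55. Cd163, a scavenger receptor of resident macrophages, stood at 3.93, 3.21 and 14.1 CPM in normal colon and at 0.136, 0.702 and 0.435 CPM in tumours (log2 fold change -3.96, SE 0.64, adjusted p 6.2e-05). Folr2, a marker of resident macrophages, fell from 4.10, 3.90 and 5.11 to 1.22, 1.40 and 0.761 CPM (log2 fold change -1.94, SE 0.47, adjusted p 0.00226). Trem2, a lipid-sensing receptor, rose from 0.719, 0.557 and 0.929 CPM in normal colon to 3.40, 2.46 and 1.85 CPM in tumours (log2 fold change 1.79, SE 0.40, adjusted p 0.00116). Groups did not overlap for these 3. The number of higher genes was 3 without normal replicate 1, 8 without normal replicate 3, and 2 without tumour replicates 2 and 3.

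Mast cell genes were higher in 5 of 10 cases, and in 3 without normal replicate 1 (median 2.29). Hdc, which makes histamine, stood at 0.845, 0.279 and 0.774 CPM in normal colon and at 25.8, 6.32 and 9.68 CPM in tumours (log2 fold change 4.32, SE 0.87, adjusted p 0.000652). Mcpt2, a mucosal mast cell protease, rose from 1.06, 1.11 and 0.465 to 10.6, 6.55 and 5.98 CPM (log2 fold change 3.06, SE 0.90, adjusted p 0.00927). Tumour replicate 1 was the highest library for both. The mast cell proteases are close paralogs, so single members are uncertain.

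B lineage genes were lower in 8 of 12 cases (median -2.93). Ms4a1, the B cell antigen CD20, fell from 7.74, 2.79 and 13.2 CPM in normal colon to 0.407, 0.819 and 0.761 CPM in tumours (log2 fold change -3.53, SE 1.04, adjusted p 0.00996). Tnfrsf17, a receptor of plasma cells, went from 0.676, 0.697 and 1.55 to 0.136, 0 and 0.109 CPM, a ratio of 10.4 (95% counting interval 2.66 to 90.0). The summed level of the list was 57.2, 26.3 and 107 CPM in normal colon and 12.9, 12.3 and 10.004 CPM in tumours, so that normal replicate 3 held about 4 times as much as normal replicate 2. The count of lower genes was 2 without normal replicate 3, 4 without tumour replicate 1 and 3 without tumour replicate 3. It was 0 when tumour replicates 2 and 3 were both left out. T and cytotoxic cell genes showed 1 of 13 higher and none lower, with summed levels of 18.1, 19.0 and 37.0 CPM in normal colon and 34.0, 22.7 and 26.3 CPM in tumours. Cd3e, a subunit of the T cell receptor complex, had a log2 fold change of 0.32 that did not pass.

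Most tested smooth muscle and enteric neuron genes were lower in tumours, whereas glial genes went both ways. Smooth muscle genes fell in 18 of 19 cases, with a median of -3.01. The summed level of the list was 4425, 3004 and 6654 CPM in normal colon and 753, 711 and 777 CPM in tumours. Des, desmin, stood at 354, 170.2 and 479.7 CPM in normal colon and at 5.43, 4.56 and 10.4 CPM in tumours (log2 fold change -5.60, SE 0.78, adjusted p 3.21e-05). Cnn1, a contractile protein, fell from 199, 114 and 277 to 7.74, 3.98 and 6.52 CPM (log2 fold change -5.02, SE 0.59, adjusted p 5.99e-06). Pgm5, a protein of muscle adhesions, fell from 188, 145 and 266 CPM in normal colon to 5.03, 7.37 and 6.96 CPM in tumours (log2 fold change -4.94, SE 0.57, adjusted p 5.02e-06). Normal replicate 3 held the most and replicate 2 the least of Des and Cnn1, and no tumour library came near. Myh11, the smooth muscle myosin, stood at 846, 629 and 1502 CPM in normal colon and at 60.6, 46.2 and 47.5 CPM in tumours (log2 fold change -4.27, SE 0.64, adjusted p 5.82e-05). Acta2, an actin that activated fibroblasts also express, fell from 411, 384 and 729 to 68.7, 61.3 and 65.9 CPM (log2 fold change -2.96, SE 0.40, adjusted p 1.94e-05). The CArG box, the motif of serum response factor in muscle promoters, was searched by its full consensus on both strands over the same 250 bases. It was found in 0 of 15 list promoters in the table and in 1.51% of 16781 genes, and nothing follows from this about the factor.

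Enteric neuron genes were lower in 8 of 12 cases and 1 was higher (median -2.36, or -1.75 with genes at 0 set to their bounds). Vip, a transmitter peptide, went from 15.8, 14.8 and 18.6 to 0.136, 0 and 0.109 CPM, a ratio of 202 (95% counting interval 55.7 to 1672). Nos1, the neuronal nitric oxide synthase, fell from 3.89, 5.57 and 5.11 CPM in normal colon to 0, 0.117 and 0.435 CPM in tumours (log2 fold change -4.54, SE 1.06, adjusted p 0.00199). Snap25, a protein of synaptic vesicle fusion, stood at 8.33, 10.7 and 9.91 CPM in normal colon and at 1.36, 2.11 and 0.326 CPM in tumours (log2 fold change -2.93, SE 0.41, adjusted p 1.43e-05). All 3 were low in every tumour. Ret, the receptor of a neurotrophic factor, rose from 7.40, 7.53 and 6.97 to 54.3, 36.6 and 61.8 CPM (log2 fold change 2.8, SE 0.60, adjusted p 0.00106). Ret was the member that rose. Summed over the list, Ret included, levels were 54.9, 61.0 and 71.1 CPM in normal colon and 62.6, 51.1 and 71.0 CPM in tumours, with overlap.

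Of 9 glial genes, 3 were lower and 2 higher (median -0.78), with 1 higher without normal replicate 1 or without tumour replicates 2 and 3. Gpm6b, a membrane protein, was among the higher, at 12.5, 16.3 and 16.9 CPM in normal colon and 34.4, 26.9 and 38.6 CPM in tumours. Cdh19, a cadherin of the lineage, fell from 4.10, 2.79 and 9.14 CPM in normal colon to 0, 0.351 and 0.326 CPM in tumours (log2 fold change -4.42, SE 0.69, adjusted p 4.03e-05). Gfap, a glial filament, stood at 3.51, 4.04 and 3.41 CPM in normal colon and at 0.543, 0.468 and 0.109 CPM in tumours (log2 fold change -3.29, SE 0.57, adjusted p 0.000109). The defining factor Sox10 and S100b, at -0.70 and -0.56, did not pass. Summed over the glial list, levels were 48.8, 41.0 and 61.5 CPM in normal colon and 43.9, 37.8 and 48.2 CPM in tumours, with overlap. Of all genes, 25% were higher and 24% lower. Of 6 genes of the interstitial pacemaker cells, 4 were lower (median -2.00). Etv1, a transcription factor of these cells, fell from 9.09, 11.8 and 9.14 to 0.679, 2.92 and 1.30 CPM (log2 fold change -2.59, SE 0.36, adjusted p 1.4e-05). Kit, their receptor kinase, also present on mast cells, fell from 94.5, 63.1 and 73.4 CPM in normal colon to 21.9, 34.0 and 30.4 CPM in tumours (log2 fold change -1.42, SE 0.24, adjusted p 0.000107). Kit was thus lower in tumours in which 5 of 10 mast cell genes were higher.

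Mesothelial genes, which mark the outer surface, were lower in 5 of 6 cases (median -4.23, or -3.19 with genes at 0 set to their bounds). Upk3b stood at 7.69, 6.41 and 0.155 CPM in normal colon and had no count in tumours, at least 13.1-fold lower. Wt1, the defining factor, stood at 3.47, 1.53 and 0.465 CPM in normal colon, again with no count in tumours, and was at least 5.04-fold lower. Normal replicate 3 held little of either, so that the group means rest on normal replicates 1 and 2. The adjusted p of Upk3b was 0.0206, and it was 0.0510 without normal replicate 1 and 0.0503, 0.0514 and 0.0549 without tumour replicates 1, 2 and 3. The number of lower genes was 2 without normal replicate 1, 2 without tumour replicate 1, 3 without tumour replicate 3 and 1 without tumour replicates 2 and 3. Msln did not pass, at 11.5, 7.11 and 1.39 CPM in normal colon and 21.1, 8.42 and 13.7 CPM in tumours. The labels do not say which layers of the wall each piece held, and the part of this in the lower muscle, nerve and mesothelial genes was not tested.

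Squamous genes, which mark the skin-like epithelium of the anal margin, had summed levels of 9.81, 10.6 and 12.7 CPM in normal colon and 161, 95.7 and 229.8 CPM in tumours. Krt17, a keratin of injured and squamous epithelium, stood at 1.69, 0.418 and 1.55 CPM in normal colon and at 28.1, 9.83 and 19.4 CPM in tumours (log2 fold change 3.85, SE 1.13, adjusted p 0.0101). Krt14, a basal keratin, was at 2.58, 1.67 and 1.39 CPM in normal colon and 78.6, 39.0 and 76.3 CPM in tumours and did not pass (adjusted p 0.0651), although the groups did not overlap. The defining factor Trp63 stood at 0.0845, 0.279 and 0 CPM in normal colon and 0.272, 0.351 and 4.13 CPM in tumours, and Krt5 at 0, 2.69 and 35.1 CPM in tumours. Both were highest in tumour replicate 3 and near or at 0 in tumour replicate 1. When the fit held the compared groups alone, 7 of 12 genes were higher in place of 1, and with DESeq2 5. In wild-type male normal colon the same sum ran from 14.2 to 2323 CPM. The part of anal tissue in the tumour results was not tested.

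The same contrast was taken in wild-type males, whose 6 libraries share no sample with the female ones. Of 7820 genes called in females, 61.6% were called in males with the same sign. Of the 5697 called in males, 84.6% were called in females with the same sign. There were 4820 such genes and 18 with opposite signs. The difference of the female and male tumour effects was tested directly. It passed for 179 genes (1.12%), 148 with a larger log2 fold change in females (0.929%) and 31 with a smaller one (0.195%). This count depended on single libraries. It was 33, 69 and 145 without female normal replicates 1, 2 and 3. Without female tumour replicates 1, 2 and 3 it was 191, 95 and 31. Without male normal replicates 1, 2 and 3 it was 47, 75 and 544, and without male tumour replicates 1, 2 and 3 it was 47, 69 and 49.

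The 5 genes named for the largest positive difference were under 1 CPM in every wild-type female normal library. H19 had 0.472, 8.31 and 0.199 CPM in male normal colon and 7.34, 4.07 and 2.39 CPM in male tumours, where it did not pass (log2 fold change 0.66, adjusted p 0.619). The female minus male difference for H19 was 8.44 log2 units (SE 1.80, adjusted p 0.0383), and it rests on 0.0845, 0.139 and 0 CPM in female normal colon. In knock-in female normal colon H19 stood at 0.298, 0.112 and 0.459 CPM. Alox15, a lipoxygenase, went from 0.761, 0.976 and 0.774 to 61.7, 36.1 and 89.8 CPM in females. In males it went from 12.6, 18.6 and 7.66 to 27.7, 43.9 and 37.6 CPM, a difference of 4.77 log2 units (SE 0.82, adjusted p 0.0131). The adjusted p of Alox15 was 0.0609 without female normal replicate 1. Knock-in female normal colon held 11.8, 6.18 and 7.2 CPM, so that the wild-type female normal libraries were the low ones among 3 groups of normal colon.

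Habp2 was at 4.68, 13.2 and 1.19 CPM in male normal colon and 15.6, 20.4 and 10.5 CPM in male tumours, a difference of 6.31 log2 units (SE 1.35, adjusted p 0.0370). Ascl4, a transcription factor, went from 0.211, 0 and 0.155 to 9.10, 17 and 14.1 CPM in females and from 4.53, 6.14 and 1.39 to 16.1, 10.2 and 12.9 CPM in males, a difference of 4.66 log2 units (SE 1.08, adjusted p 0.0455). Col9a3, a collagen chain, went from 0.465, 0.557 and 0.619 to 26.1, 17.3 and 31.3 CPM in females and from 1.98, 9.96 and 0.995 to 12.0, 11.6 and 8.20 CPM in males, a difference of 4.25 log2 units (SE 0.92, adjusted p 0.0362). Knock-in female normal colon held 0.714, 0.337 and 0 CPM of Habp2, 0.774, 0.450 and 0 CPM of Ascl4 and 0.536, 0.787 and 0.230 CPM of Col9a3. In each of these 3 genes the male normal libraries were all above those of wild-type and knock-in females, and the tumours of both sexes lay closer together in ratio. Leaving out 1 library at a time ended the call of H19 in 9 of 12 cases (adjusted p 0.0566 to 0.147, the highest without male normal replicate 2). That of Habp2 was lost in 10 (adjusted p 0.0566 to 0.112, the highest without female normal replicate 1). That of Ascl4 was lost in 10 (adjusted p 0.0768 to 0.123, the highest without female normal replicate 1). That of Col9a3 was lost in 8 (adjusted p 0.0569 to 0.118, the highest without female normal replicate 1).

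The 5 genes named for the largest negative difference were lower on average in female tumours than in female normal colon. Igf2bp2, an RNA-binding protein of growth control, went from 16.4, 18.4 and 16.6 to 4.48, 6.43 and 8.37 CPM in females and from 10.4, 7.26 and 14.5 to 26.3, 25.0 and 24.8 CPM in males, a difference of -2.65 log2 units (SE 0.48, adjusted p 0.0139). It fell in female and rose in male tumours (male adjusted p 0.00749), and female normal libraries were all above male ones. Foxo6, a transcription factor, went from 3.89, 5.85 and 2.48 to 1.22, 1.17 and 0.544 CPM in females and from 1.51, 1.95 and 1.89 to 3.02, 2.62 and 3.41 CPM in males, a difference of -2.84 log2 units (SE 0.52, adjusted p 0.0147). Its adjusted p was 0.0600 without female tumour replicate 3 and 0.0513 without male normal replicate 1. Mx1, an interferon-induced gene, went from 13.2, 16.9 and 4.96 to 4.89, 2.22 and 3.91 CPM in females and from 3.59, 4.27 and 2.79 to 10.2, 7.86 and 7.0 CPM in males, a difference of -2.91 log2 units (SE 0.59, adjusted p 0.0246). Ceacam2 and the vesicle protein gene Rab3c had differences of -2.97 and -3.74, and Ceacam2 shares sequence with Ceacam1, which makes its counts uncertain. Knock-in female normal colon held 5.06, 4.27 and 3.52 CPM of Mx1 and 28.6, 22.03 and 24.4 CPM of Ceacam2. Both overlapped male normal colon. Wild-type female normal colon, at 85.5, 203 and 37.9 CPM of Ceacam2, lay above both groups, as did its replicates 1 and 2 for Mx1. Knock-in levels were 10.2, 9.89 and 6.05 CPM for Rab3c, 3.1, 2.02 and 1.68 CPM for Foxo6 and 13.1, 16.2 and 25.6 CPM for Igf2bp2. These overlapped both wild-type female and male normal colon. Leaving out 1 library at a time ended the call of Mx1 in 6 of 12 cases (adjusted p 0.0566 to 0.0765, the highest without female tumour replicate 3). That of Ceacam2 was lost in 11 (adjusted p 0.0502 to 0.116, the highest without male normal replicate 2). That of Rab3c was lost in 9 (adjusted p 0.0545 to 0.123, the highest without female tumour replicate 3). Without female tumour replicates 2 and 3 together, the calls of all 10 genes named for the sex difference were lost (adjusted p 0.0601 for Alox15 to 0.292 for Rab3c, with 0.0680 for Igf2bp2 and 0.141 for Foxo6). With library numbers of 152 and above as a covariate Alox15 passed and the other 9 did not (adjusted p 0.0704 for H19 and Igf2bp2 to 0.203 for Ceacam2).

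**Figure D4:**
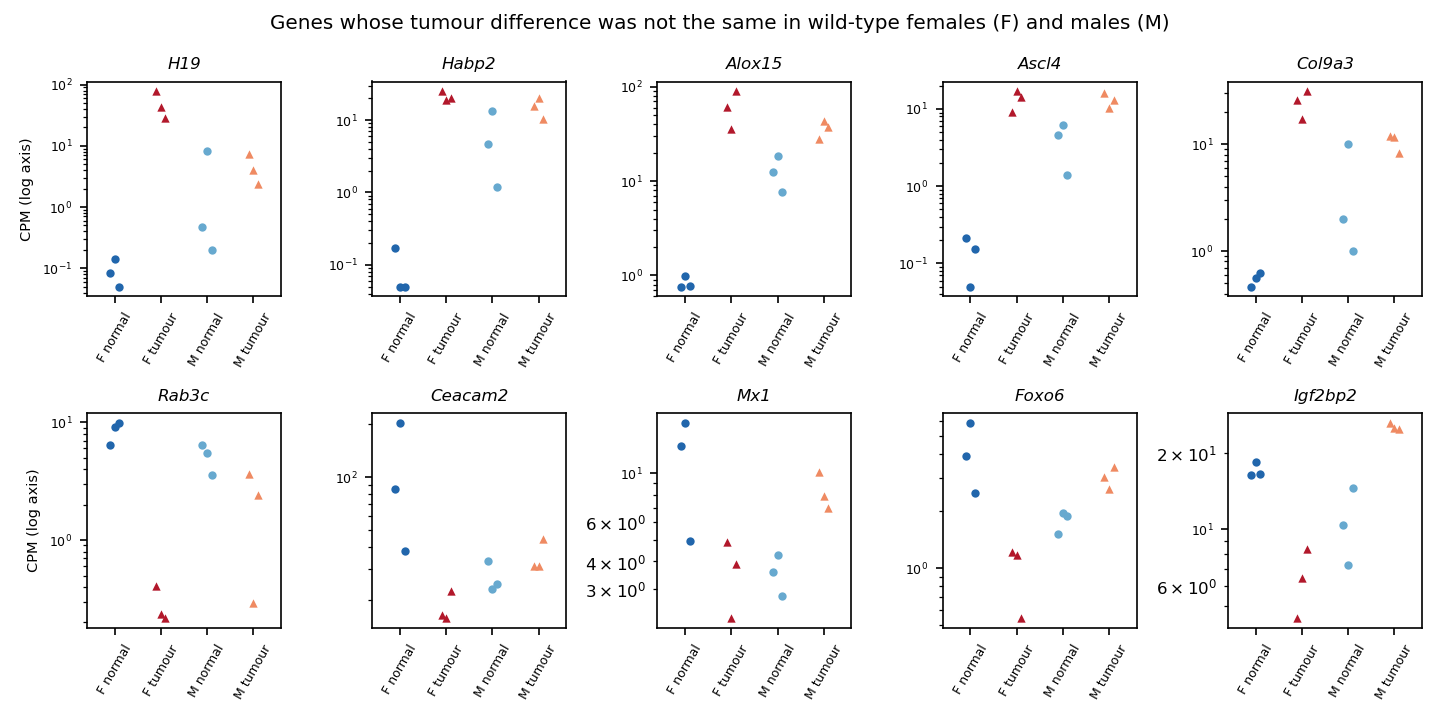
CPM on a log axis for the 10 genes named by the test of the difference between female (F) and male (M) tumour effects, one point per library, circles for normal colon and triangles for tumour, with values under 0.05 CPM drawn at 0.05. The upper row shows genes with a larger log2 fold change in females, lowest in female normal colon, and the lower row genes with a smaller one.

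Summed levels show where wild-type female normal colon stood beside wild-type male and knock-in female normal colon. The lists were not summed in knock-in male normal colon. Wnt target genes summed to 569, 582 and 521 CPM in wild-type female normal colon. The sum ran from 985 to 2223 CPM in wild-type male and from 736 to 855 CPM in knock-in female normal colon. In tumours it was 3902, 4272 and 4621 CPM in females and 5213 to 5559 CPM in males. Female tumours thus lay below male ones, while the list median of the fold change was 3.75 in females and 1.81 in males. Collagen and activated fibroblast genes summed to 1895, 1645 and 1797 CPM in female and 3227 to 3682 CPM in male normal colon, the latter above female tumour replicate 1 at 2693 CPM. Endothelial genes summed to 131, 154 and 176 CPM in female and 269 to 412 CPM in male normal colon, and metalloproteinases to 97.2, 90.2 and 118 CPM and 201 to 540.1 CPM. Goblet cell genes had the opposite order in female normal replicates 1 and 2, at 50498, 38559 and 24998 CPM in the 3 female libraries and 12382 to 25317 CPM in males. These sums are descriptions, and sex cannot be told apart here from other differences between the libraries.

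**Figure D5:**
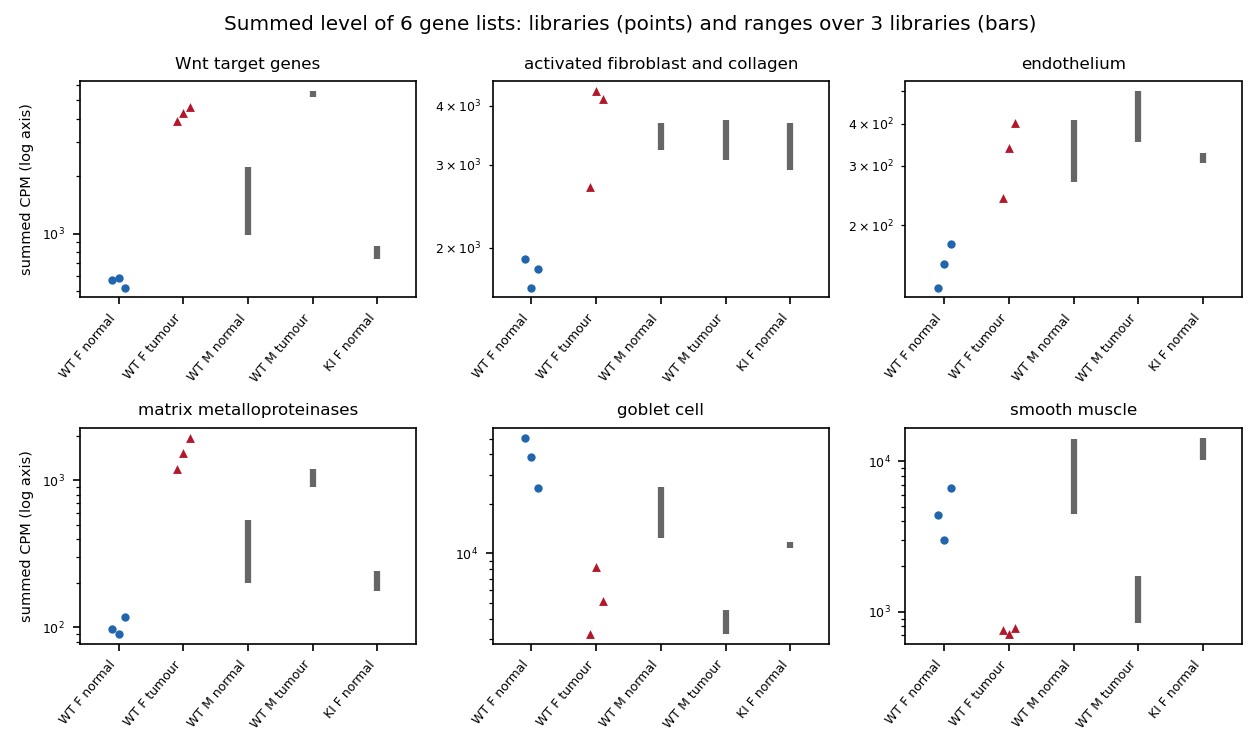
Summed CPM on a log axis of 6 gene lists; points are the wild-type female (WT F) libraries, and grey bars the range over 3 libraries in wild-type males (WT M) and knock-in females (KI F). Wild-type female normal colon is the lowest of the groups shown for Wnt targets, collagen, endothelium and metalloproteinases. Knock-in males are not shown.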

How the data were processed

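The deposited table holds read counts per gene for 21 libraries, named by gene symbol. The labels' protocols describe total RNA purified with Qiazol, removal of ribosomal RNA by an RNase-H method, random hexamer priming and sequencing on a NovaSeq. Per the submitters' processing notes, the authors used Trimmomatic, HISAT2, featureCounts and DESeq2 with the build mm10 to make these counts. Versions, the annotation and the strand setting are not given in the sources used here, so reads of antisense and overlapping genes, and of close paralogs such as Ceacam2, Lyz1, Mptx1, Saa and Mcpt genes, may be shared.

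Counts were fitted with edgeR 4.0.16 (R 4.3.3) for all 21 libraries in 7 groups of 3, with TMM scaling, filterByExpr (15936 of 24062 genes kept) and the robust quasi-likelihood test, which gives the groups a shared estimate of the spread. Of the knock-in female normal libraries, 2 share 1 column name and entered as replicates without a number. The tumour effect is tumour minus normal colon within wild-type females, and the sex difference is that effect minus the same effect in males. Adjusted p-values are Benjamini-Hochberg over all tested genes. A group without counts was set to a floor of 3 counts per library, between 0.127 and 0.465 CPM in these 6 libraries. Intervals are exact at 95%. In 200 genes changed in simulated counts of 15936 genes for the female comparison, 58% of changes of 1 log2 unit and 92% of those of 2 were recovered, with 4 false calls. The changed genes were drawn from those with more counts and were few, whereas 49.1% of genes were called in the data. These rates therefore do not carry over to the female comparison.

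For the tumour effect the 10 genes with the largest rise and the 10 with the largest fall were named, and for the sex difference 5 each way, with a mean of at least 50 counts in 1 group. In each list the members with the largest change at that depth are given by library, and further members were added for their known role after their values had been seen. Some members of the lists, counted with the rest, are not reported here by name. The comparison, the lists and the rules were chosen with earlier results of these data known. Same-numbered tumour and normal libraries did not deviate together (correlations of -0.06, -0.05 and 0.01), so they were not treated as pairs. Alternatives were DESeq2 size factors, library totals, DESeq2 1.42.0, voom with limma 3.58.1, other filters, a replicate block, the compared groups alone, library numbers of 152 and above as a covariate and each library left out. Chosen after seeing the data were the omission of tumour libraries numbered 152 and above, and offsets for GC content and length. Loci are from GENCODE vM21 on GRCm38 (mm10) and promoters from RefSeq on GRCm38.p6, with those on chromosome 18 left out of both motif searches. The authors' second deposited table, of DESeq2 comparisons, has no column for this one and was not used. Figures were drawn with matplotlib 3.10.9 under Python 3.11.15.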

Additional observations from a re-analysis of the deposited data

Results flagged for a closer look

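These genes are given because the female and male tumour effects differed in the test of the difference itself. Values are the female minus the male log2 fold change, and 1.12% of all genes passed this test. The tumour effect was larger in females for H19 (8.44), Habp2 (6.31), Alox15 (4.77), Ascl4 (4.66) and Col9a3 (4.25), the genes named by size. It was also larger for the Wnt pathway genes Ascl2 (2.12), Wnt5a (1.90) and Ephb3 (1.12) and for the BMP ligand gene Bmp7 (2.96). The same held for the collagen genes Col1a1 (1.78), Col5a1 (1.39) and Col1a2 (1.37), for the metalloproteinase gene Mmp2 (1.23), and for the endothelial genes Flt1 (1.85) and Esam (1.17).

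The female effect was lower than the male one for Rab3c (-3.74), Ceacam2 (-2.97), Mx1 (-2.91), Foxo6 (-2.84) and Igf2bp2 (-2.65), and for Hpgds (-1.12), a prostaglandin synthase of tuft and immune cells. All of these tests share the female and male normal libraries, whose summed levels of Wnt target, collagen, endothelial and metalloproteinase genes were lower in females, as the report gives, and the part of those levels in the differences was not tested. No test of a single library against the rest of its group was made, since each group has 3.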

How the results depend on the processing

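The number of genes with a tumour effect stayed within 1.5 times 7820 under every alternative that kept the threshold, from 5669 without the tumour libraries numbered 152 and above to 9258 with voom, and from 6647 to 7329 with 1 library left out. Demanding 1 log2 unit as well left 4024 (1995 higher, 2029 lower). Of the values of single genes under alternatives, 6130 kept their direction and side of the threshold, 365 lost the threshold, and 1 reversed, Pecam1 at -0.19 (adjusted p 0.632) without the tumour libraries numbered 152 and above. Of the list counts, 1189 stayed within 1.5 times and 103 moved by more.

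The sex difference depended on the setting. In place of 179 genes (148 higher, 31 lower) it gave 311 (282 higher) with library totals, 577 (450 and 127) with DESeq2, 1467 (965 and 502) with voom, 23 (20 and 3) with the library number covariate, 19 (12 and 7) without the tumour libraries numbered 152 and above, 64 lower with GC and length offsets, and 20 lower with a demand of 1 log2 unit. With 1 library left out it ranged from 31 to 544 (29 to 412 higher, 2 to 132 lower). With the replicate block, which the data did not show to pair the libraries, 7604 genes had a tumour effect, and the sex difference passed for 73 (65 and 8), or 117 (97 and 20) with the compared groups alone. The cause was not tested.

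With 3 libraries a group and totals of 6429958 to 26174008 counts, a gene at 0 in a normal library could lie up to the floor of 0.127 to 0.465 CPM, so that folds of genes at or near 0 on 1 side are bounds or carry wide intervals. Rn45s share was higher in every tumour than in every normal library of these 6, and its effect cannot be told apart from that of the tumour by them alone. Tumour replicate 1 lies near the normal libraries in library number. The calls without the tumour libraries numbered 152 and above held 67.5% of the 7820, and the 6378 with the library number covariate held 78.0%.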

Other observations

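Tuft cell genes, which mark a rare chemosensory cell of the lining, changed in both directions, with 2 of 9 tested higher and 3 lower. These counts are near the shares over all genes, 25% higher and 24% lower. Trpm5, a taste transduction channel, fell from 9.6, 5.16 and 5.42 CPM in normal colon to 0.407, 1.40 and 0.979 CPM in tumours (log2 fold change -2.84, SE 0.50, adjusted p 0.000127). Dclk1, a kinase, stood at 32.6, 26.2 and 25.7 CPM in normal colon and at 10.6, 9.94 and 9.35 CPM in tumours (log2 fold change -1.51, SE 0.19, adjusted p 6.08e-06). Avil, advillin, rose from 8.75, 10.2 and 2.79 to 73.5, 81.1 and 104 CPM (log2 fold change 3.53, SE 0.58, adjusted p 0.000122). All 3 are markers of the cell; the first 2 lie lower in every tumour library, and the third lies higher. The summed level of the list was 97.5, 84.0 and 93.5 CPM in normal colon and 129, 143 and 167 CPM in tumours, higher in every tumour. The number of higher genes was 1 without normal replicate 2, normal replicate 3 or tumour replicate 3.

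Epithelial oxidases and nitric oxide synthases mostly did not pass, with 1 of 8 higher, or 2 without normal replicate 2, and 2 lower. The shares over all genes were 25% higher and 24% lower. Nos2, the inducible synthase, was at 23.8, 124 and 13.0 CPM in normal colon and 273, 83.2 and 111 CPM in tumours (log2 fold change 1.55, SE 0.87, adjusted p 0.154). Duox2, a hydrogen peroxide-producing oxidase, was at 1087, 917 and 509 and 451, 449 and 519 CPM in the same order (log2 fold change -0.83, SE 0.39, adjusted p 0.0916). Fat cell genes were lower in 2 of 6 cases, beside 24% of all genes. Pck1, an enzyme of glyceroneogenesis that colonocytes also express, fell from 145, 67.2 and 91.4 CPM in normal colon to 1.49, 6.78 and 4.02 CPM in tumours (log2 fold change -4.61, SE 0.61, adjusted p 1.61e-05). The fat cell marker Fabp4 did not pass, at a log2 fold change of -0.21.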
